A study of Mus musculus with 6 samples.

Results

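Receptors for peptide hormones were examined in white adipose tissue of KSR2-/- mice, with wild-type mice as the comparison. The 10 receptor genes were Oxtr, Avpr1a, Gipr, Npr1, Npr2, Ghr, Lepr, Prlr, Tshr and Igf1r, found by symbol in the platform annotation, and 9 of them had a probe set assigned to that gene alone, out of 18193 genes measured in this way. Prlr, the prolactin receptor, is not analysed here. The 9 genes were read by 22 probe sets, and the brightest probe set by its average over all 6 arrays stands for a gene. The genes were chosen by their measured KSR2-/- against WT differences, which were already known, so their values are given as a description with no p. A count of members past the threshold of the fit over all genes is given only beside the share of all genes past it, and nothing is read from it.

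Total RNA of 6 mice was hybridized to Affymetrix arrays, with 1 mouse on each array. Of these, 3 mice were KSR2-/- and 3 were wild type (WT), and all were C57Bl6 females aged 6 months according to the labels. KSR2 is a scaffold on which the kinases of the Raf, MEK and ERK cascade assemble, and mice that lack it are known to become obese. Neither the fat depot nor the deleted part of the gene is stated in the labels. All values are log2 of the deposited RMA intensity, in which a difference of 1 is a 2-fold difference, and the number of arrays limits their precision. Nothing in the sources used here gives detection calls, so a probe set in the dim range may read background.

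Peptide hormones act on fat through a few kinds of receptor. OXTR, AVPR1A, GIPR and TSHR are coupled to G proteins, the first pair mainly to Gq and calcium release and the other pair mainly to Gs and cyclic AMP. NPR1 and NPR2 are membrane guanylyl cyclases that make cyclic GMP, GHR, LEPR and PRLR are cytokine receptors that signal through the kinase JAK2 and STAT factors, and IGF1R is a receptor tyrosine kinase. Oxytocin is best known for contraction of the uterus and of mammary myoepithelium, and its receptor is also made in adipose tissue.

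The promoters of Oxtr and of its close relative Avpr1a are shown because the receptors belong to the same family, while the Oxtr readings differed widely between the genotypes and the Avpr1a readings overlapped. Of the 10 genes, 8 have an entry among the RefSeq promoters of GRCm38.p6. Each line gives the 250 bases before the annotated start, 5′ to 3′ on the strand of the gene, at chr6:112489826-112490075 on the minus strand for Oxtr and chr10:122448249-122448498 on the plus strand for Avpr1a. Capitals mark every match to a motif searched on both strands.
Oxtr: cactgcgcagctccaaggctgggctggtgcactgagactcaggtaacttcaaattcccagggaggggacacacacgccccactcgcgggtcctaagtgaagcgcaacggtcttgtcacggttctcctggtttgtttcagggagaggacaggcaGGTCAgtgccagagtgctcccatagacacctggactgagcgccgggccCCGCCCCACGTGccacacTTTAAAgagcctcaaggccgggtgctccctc
Avpr1a: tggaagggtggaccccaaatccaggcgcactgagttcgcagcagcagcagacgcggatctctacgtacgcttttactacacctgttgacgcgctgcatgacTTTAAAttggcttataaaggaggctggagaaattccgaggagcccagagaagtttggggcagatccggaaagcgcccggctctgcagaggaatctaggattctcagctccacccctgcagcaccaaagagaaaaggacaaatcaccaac
The motifs searched were GGTCA (the core of an oestrogen response element), CACGTG (E-box), TTCNNNGAA (STAT factors), TGANTCA (AP-1), TGACGTCA (cyclic AMP response element), GGGCGG (GC box) and TTTAAA (resembling a TATA box). The Oxtr window held GGTCA at −97 to −93, a GC box at −49 to −44, an E-box at −43 to −38 and TTTAAA at −31 to −26, counted back from the start, and no 2 matches overlapped. In the Avpr1a window only TTTAAA matched, at −149 to −144. Among 32851 promoter windows of that length, 35.2% held GGTCA, 32.7% GGGCGG, 6.02% CACGTG and 12.1% TTTAAA. The motifs absent from both windows occurred in 7.02% of windows for TTCNNNGAA, 6.75% for TGANTCA and 1.55% for TGACGTCA. The RefSeq span of Oxtr, chr6:112473683-112491035, reaches further upstream than this start, so other transcripts of the gene begin elsewhere.

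Before the receptors, some arrays stood apart. The animal numbers in the labels form a set above 6000 of 4 mice (KSR2-/- 1 and 2, WT 1 and 2), called the high-number mice, and a set below 6000 of 2, the low-number mice (KSR2-/- 3 and WT 3), and differences are given within each where they matter. The Gapdh 3′ minus 5′ difference, a measure of RNA integrity, was 0.47, 1.46 and 0.81 in KSR2-/- mice 1 to 3, against 0.07, 0.69 and 4.18 in WT mice 1 to 3. The tissue label held up in its markers: Adipoq, the adiponectin gene, read 12.70, 12.95 and 13.40 in KSR2-/- mice, against 13.46, 13.58 and 13.52 in WT mice. The mean of 9 measured adipocyte markers was 10.47, 10.78 and 11.70 in KSR2-/- mice, against 11.42, 11.74 and 11.60 in WT mice. For 12 macrophage markers the mean was 9.71, 9.81 and 8.45 in KSR2-/- mice, against 8.20, 8.35 and 8.29 in WT mice. For 13 markers of mammary luminal epithelium it was 4.23, 4.28 and 5.41 in KSR2-/- mice, against 4.67, 4.62 and 6.58 in WT mice. Skeletal muscle markers, 9 in number, averaged 4.98, 5.03 and 5.29 in KSR2-/- mice, against 4.21, 5.05 and 7.27 in WT mice. KSR2-/- 1 and 2 thus read low in adipocyte and high in macrophage markers. In KSR2-/- 3 the adipocyte mean lay among the WT mice, and the macrophage mean, 8.45, lay slightly above all of them. WT 3 read highest in mammary and muscle markers.

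Oxtr was the member with the widest gap between the genotypes. Its main probe set, 1440888_at, read 10.56, 10.57 and 10.55 in KSR2-/- mice 1 to 3, against 6.58, 6.86 and 8.06 in WT mice 1 to 3. All KSR2-/- readings lay above all WT readings, and WT 3 lay above the other WT mice. On the linear scale these are intensities of 1494 to 1521 in KSR2-/- mice and 95.7 to 267 in WT mice. The means were 10.56 ± 0.013 in KSR2-/- mice and 7.17 ± 0.79 in WT mice (SD, n = 3 each), a 10.5-fold difference of 3.39 (SE 0.37). This was the difference that brought Oxtr into the set, and it ranked 8 among all genes by the size of a difference toward higher KSR2-/- readings.

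**Figure D1:**
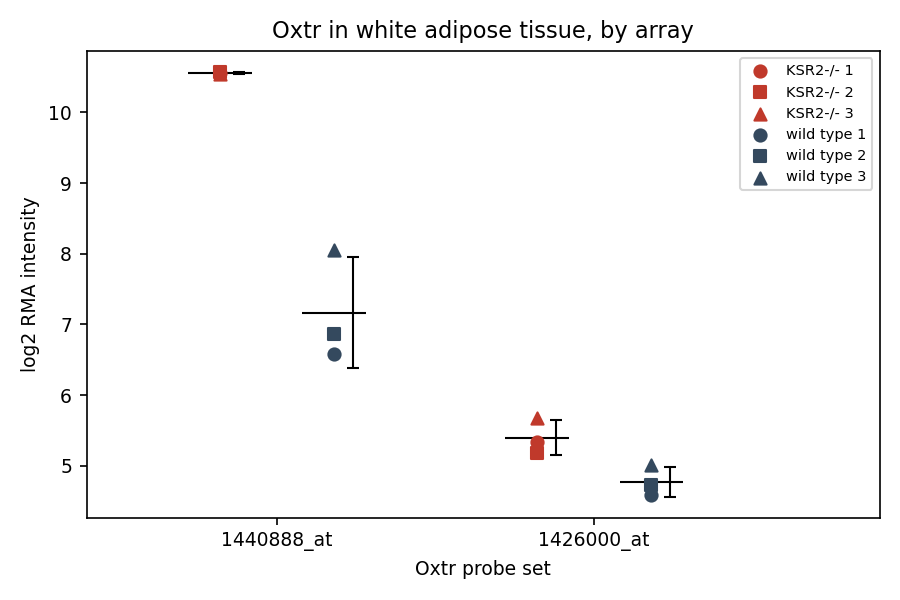
Log2 RMA intensity (vertical axis) of the 2 Oxtr probe sets (horizontal axis), with KSR2-/- mice in red left of WT mice in blue, 1 symbol for each mouse, and lines and bars for the mean and SD. On 1440888_at the KSR2-/- mice coincide near 10.56 while WT mice range from 6.58 to 8.06, and on 1426000_at the groups lie closer, with means of 5.40 in KSR2-/- mice and 4.78 in WT mice.

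The second Oxtr probe set, 1426000_at, read 5.34, 5.18 and 5.67 in KSR2-/- mice, against 4.59, 4.73 and 5.01 in WT mice. Again the groups did not overlap, but the difference was 0.62 (SE 0.19), or 1.54-fold. The size of the Oxtr difference therefore depends on the probe set, and their average gave 2.01. Among the high-number mice the main probe set differed by 3.85 and between the low-number mice by 2.48, against 0.60 and 0.67 for the other probe set.

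The KSR2-/- mice were unusually close together on the main Oxtr probe set. Over all genes the median SD of the KSR2-/- arrays was 0.24, and 71 genes, or 0.390%, had an SD as small as that of Oxtr. On the second Oxtr probe set, 1426000_at, the KSR2-/- mice were not unusually close, with an SD of 0.25. Marker means of the same 3 mice did not coincide in this way. Macrophage markers read 8.45 in KSR2-/- 3 and over 1 higher in KSR2-/- 1 and 2. On its main probe set Oxtr was as high in KSR2-/- 3 as in the others. The part of macrophages in the Oxtr readings was not tested. For the whole macrophage list, 11 of 12 markers had a higher KSR2-/- mean, and the log2 of their summed intensity was 13.30 to 14.54 in KSR2-/- mice, against 13.10 to 13.29 in WT mice.

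Markers of the cells in which Oxtr is best known were read beside it. Of 8 myoepithelial markers 3 had a higher KSR2-/- mean. Their list mean was 4.44, 4.40 and 4.68 in KSR2-/- mice, against 4.49, 4.55 and 5.12 in WT mice. The log2 of their summed intensity was 9.76 to 10.20 in KSR2-/- mice and 9.36 to 9.80 in WT mice. Most of that sum was 1 gene, Dst, at 9.56, 9.72 and 10.04 in KSR2-/- mice and 9.06, 9.24 and 9.47 in WT mice. The other myoepithelial markers averaged 5.20 or less. All 13 mammary luminal markers had a lower KSR2-/- mean, with a log2 summed intensity of 8.33 to 10.65 in KSR2-/- mice and 8.74 to 11.38 in WT mice. Of 13 measured ovary and uterus markers 4 had a higher KSR2-/- mean, with 7.97 to 8.39 in KSR2-/- mice and 8.14 to 8.44 in WT mice. That list held no smooth muscle marker. Of 12 smooth muscle and pericyte markers 6 had a higher KSR2-/- mean, with 12.11 to 13.18 in KSR2-/- mice and 11.97 to 12.88 in WT mice. No marker in these lists can read 0 after RMA, and 1 of them, a myoepithelial one, averaged below 2.93, the 20th percentile of all readings. The part of such cells in the Oxtr readings was not tested.

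Patterns most like that of Oxtr were sought among 265 genes with a mean at or above the median gene and an SD of at least 1 over the 6 arrays. Genes whose symbol is only a clone or prediction identifier, such as Rik or Gm symbols, were counted but not named. Pearson's r with Oxtr was 0.99 for Ddah1, which degrades an inhibitor of nitric oxide synthase, and 0.99 for the elastase Cela1. It was 0.98 for the chemokine Ccl7, for Dock8, a regulator of the actin cytoskeleton, and for Il13ra2, a decoy receptor for interleukin 13. Ddah1 read 7.04, 7.12 and 7.07 in KSR2-/- mice, against 5.00, 4.99 and 5.95 in WT mice, with WT 3 again the highest WT mouse. In the opposite direction r was −0.98 for H2-Q10, a class I histocompatibility gene, −0.96 for Fam13a, −0.95 for Tst, the thiosulfate sulfurtransferase, −0.94 for Angpt1, the angiopoietin ligand of TIE2, and −0.94 for Chdh, choline dehydrogenase. In all, 31 of the 265 genes reached an r of 0.9, and over 6 arrays in 2 genotypes these values describe likeness and nothing more.

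AVPR1A, the V1a vasopressin receptor, is the closest relative of OXTR among the members. Avpr1a on its main probe set, 1418604_at, read 5.25, 4.98 and 4.34 in KSR2-/- mice, against 5.26, 5.10 and 4.69 in WT mice. The groups overlapped, with a difference of −0.16 (SE 0.27). The other probe set, 1418603_at, differed by −0.31 (SE 0.33), also with overlapping groups. Both low-number mice read lowest in their group.

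Oxytocin itself, Oxt, read 6.73, 6.28 and 6.68 in KSR2-/- mice, against 6.80, 6.63 and 7.07 in WT mice, and vasopressin, Avp, averaged 3.35 in KSR2-/- mice and 3.47 in WT mice. The fixed oxytocin and vasopressin list also held the other vasopressin receptors, the Gq signalling chain and the RGS regulators. Lnpep, the gene of the oxytocin-cleaving enzyme, and Cd38 had no measured value on this list. Of its 11 measured genes 0 passed limma, a moderated linear model fitted over all genes, at an adjusted p under 0.05 in either direction and 0 had an unadjusted p under 0.05, where 0.0055% and 12.1% of all genes did. The median difference was −0.09, against −0.04 over all genes. Plcb4, a phospholipase C of the Gq pathway, came nearest at −0.51 (SE 0.25, limma adjusted p = 0.487). Avpr2, the renal vasopressin receptor, differed by −0.22 (SE 0.20) and Gna11 by −0.32 (SE 0.30).

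The thyrotropin receptor gene Tshr had the widest gap among the members with a lower KSR2-/- mean. On 1421999_at it read 7.27, 7.78 and 8.71 in KSR2-/- mice, against 8.41, 9.37 and 8.57 in WT mice. KSR2-/- 1 and 2 lay below every WT mouse and KSR2-/- 3 lay among them. Means were 7.92 ± 0.73 in KSR2-/- mice and 8.78 ± 0.51 in WT mice, a difference of −0.86 (SE 0.41). It was −1.36 among the high-number mice and 0.14 between the low-number mice. The other Tshr probe sets differed in the same direction, 1428001_at by −0.60 (SE 0.46) and 1442300_at by −0.35 (SE 0.34).

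Of the hormone that TSHR binds, the subunit genes Tshb and Cga averaged 3.73 and 3.27 in KSR2-/- mice, against 3.79 and 3.27 in WT mice. In the thyrotropin list limma called 0 of 10 measured genes. The 1 gene with an unadjusted p under 0.05, beside 12.1% of all genes, was Thra, a thyroid hormone receptor. Thra read 7.42, 7.78 and 8.50 in KSR2-/- mice, against 8.45, 8.65 and 8.89 in WT mice, a difference of −0.76 (SE 0.29, limma adjusted p = 0.373). Its order in the KSR2-/- mice, 1 below 2 below 3, was that of Tshr. Trh, Thrb and Dio1 differed by −0.22, −0.17 and −0.13. Fshr, a homologue of Tshr, averaged 4.07 ± 0.22 in KSR2-/- mice and 3.94 ± 0.24 in WT mice (SD, n = 3 each).

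GIPR, the receptor for the incretin GIP, read near the dim end. Gipr has 1 probe set, 1445790_at, at 3.53, 3.27 and 3.41 in KSR2-/- mice, against 3.59, 3.50 and 3.57 in WT mice. The difference was −0.15 (SE 0.15) and the groups overlapped, with 26.5% of probe sets reading lower. Its ligand gene Gip differed by −0.33 (SE 0.19). Related receptors were close to even, with Gcgr at 0.02 (SE 0.16) and Glp1r at −0.10 (SE 0.20).

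In the incretin and glucagon list limma called 0 of 16 measured genes, and 0 reached an unadjusted p under 0.05, beside 12.1% of all genes. Adcy3, an adenylyl cyclase, read 8.26, 8.57 and 7.77 in KSR2-/- mice, against 7.78, 7.75 and 7.70 in WT mice, which is 0.45 higher (SE 0.22, limma adjusted p = 0.482). Adcyap1r1, the PACAP receptor, was 0.41 higher (SE 0.21). Sctr, the secretin receptor, was −0.29 (SE 0.15) and its groups did not overlap.

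The natriuretic peptide receptors make cyclic GMP, which is known to drive lipolysis in human fat cells. Npr1, the receptor for the atrial and brain peptides, read 3.50, 3.81 and 4.10 in KSR2-/- mice, against 3.62, 3.98 and 4.20 in WT mice on 1449160_at. Npr2, the receptor for the C-type peptide, read 6.68, 7.34 and 8.25 in KSR2-/- mice, against 7.13, 8.12 and 8.31 in WT mice on 1427191_at. Both genes overlapped between the genotypes, with differences of −0.13 (SE 0.23) and −0.43 (SE 0.46). Npr1 was dim, with 33.1% of probe sets reading lower. In both genes mouse 3 read highest in its group and mouse 1 lowest. The Npr2 difference was −0.62 among the high-number mice and −0.06 between the low-number mice.

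NPR3 is the clearance receptor, which removes natriuretic peptides and has no cyclase. Npr3 read 11.82, 11.79 and 12.17 in KSR2-/- mice, against 10.92, 11.35 and 11.87 in WT mice. The difference was 0.55 (SE 0.26, limma adjusted p = 0.473) with overlapping groups. The cyclase receptors had lower KSR2-/- means, but each by less than its SE. The ligand genes Nppa, Nppb and Nppc averaged 2.87, 3.99 and 3.36 in KSR2-/- mice, against 2.99, 4.17 and 3.59 in WT mice.

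The smallest p of all 153 pathway genes was that of a gene downstream of cyclic GMP. Pde2a, a phosphodiesterase that cyclic GMP stimulates, read 11.04, 10.73 and 11.00 in KSR2-/- mice, against 9.57, 9.08 and 9.56 in WT mice, a difference of 1.52 (SE 0.20, limma adjusted p = 0.109). Vasp, a substrate of the cyclic GMP-dependent kinase, read 8.67, 8.08 and 8.68 in KSR2-/- mice, against 7.60, 7.28 and 7.26 in WT mice, which is 1.09 higher (SE 0.22, limma adjusted p = 0.197). Both kept their gap between the low-number mice, at 1.44 and 1.41. Pde2a passed limma when KSR2-/- 3 was left out. Prkg1, the kinase gene itself, differed by −0.29 (SE 0.19). Limma called 0 of the 17 measured genes of this list, with 2 higher and 0 lower at an unadjusted p under 0.05 and a median of −0.01. Over all genes 6.71% were higher and 5.38% lower at that p.

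GHR, the growth hormone receptor, restrains fat storage by promoting lipolysis, and is known to be made in fat cells. Ghr on 1417962_s_at read 12.20, 12.21 and 12.61 in KSR2-/- mice, against 12.55, 12.66 and 12.61 in WT mice. KSR2-/- 1 and 2 lay below every WT mouse and KSR2-/- 3 was level with WT 3. The difference was −0.27 (SE 0.17), made up of −0.40 among the high-number mice and 0.00 between the low-number mice. The other probe sets gave larger values, −0.65 (SE 0.32) on 1451501_a_at and −0.78 (SE 0.42) on 1451871_a_at, and the mean of all 3 gave −0.57. On 1451501_a_at the readings were 10.93, 11.27 and 12.16 in KSR2-/- mice, against 11.84, 12.23 and 12.25 in WT mice.

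LEPR, the leptin receptor, was read by 4 probe sets, all in the lower part of the range. Lepr on 1425875_a_at read 4.20, 4.16 and 4.79 in KSR2-/- mice, against 5.02, 4.29 and 4.34 in WT mice, a difference of −0.17 (SE 0.27). That difference was −0.48 among the high-number mice and 0.45 between the low-number mice. On 1425644_at the groups did not overlap, at 2.73, 2.65 and 2.74 in KSR2-/- mice against 3.53, 3.41 and 3.12 in WT mice, but only 17.7% of probe sets read lower than it. The remaining probe sets differed by −0.22 on 1425873_a_at and −0.77 on 1456156_at.

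Leptin, the ligand, is made by fat cells themselves. Lep read 11.80, 12.40 and 12.46 in KSR2-/- mice, against 9.42, 11.13 and 11.76 in WT mice. The groups did not overlap, the gap between KSR2-/- 1 and WT 3 was narrow, and WT 1 lay far below the other mice. The difference was 1.45 (SE 0.57, limma adjusted p = 0.380), or 2.73-fold. The genes of growth hormone, Gh, and prolactin, Prl, averaged 4.33 and 3.15 in KSR2-/- mice, against 4.37 and 3.18 in WT mice.

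**Figure D2:**
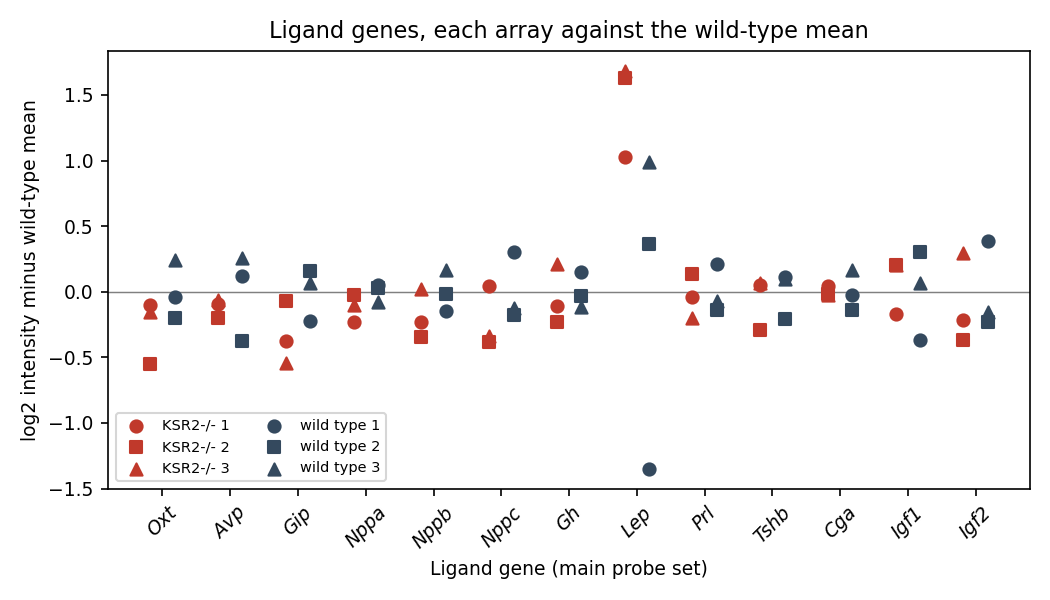
Log2 intensity minus the WT mean (vertical axis) of 13 ligand genes (horizontal axis), with KSR2-/- mice in red left of WT mice in blue and 1 symbol for each mouse. Lep has all KSR2-/- mice above all WT mice, and the other ligand genes have overlapping groups.

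The JAK-STAT list of growth hormone, prolactin and leptin signalling had 22 measured genes. Limma called 0 of them. At an unadjusted p under 0.05 were 6 higher and 1 lower, beside 6.71% and 5.38% of all genes. Groups did not overlap in 7, beside 16.3% of all genes. Stat3, the factor that leptin receptors activate, read 8.85, 8.79 and 8.90 in KSR2-/- mice, against 8.45, 8.02 and 7.84 in WT mice, which is 0.74 higher (SE 0.19, limma adjusted p = 0.248). Ptpn1, a phosphatase that dampens leptin and insulin signalling, was 0.75 higher (SE 0.22) and the blood-cell phosphatase gene Ptpn6 0.77 higher (SE 0.21). Bcl6, a repressor that competes with STAT5, read 8.60, 8.70 and 9.01 in KSR2-/- mice, against 7.33, 8.14 and 7.91 in WT mice. The median difference of the list was 0.12, and Ptpn6 passed limma when KSR2-/- 3 was left out. Macrophage markers moved with Ptpn1 and Ptpn6, which were lowest in KSR2-/- 3 among the KSR2-/- mice at 8.75 and 8.10, and their part in the result was not tested. Elf5, the 1 lower gene, stands on the mammary list too and read 6.66 in WT 3.

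IGF1R, the receptor for insulin-like growth factors, was read by 5 probe sets. Igf1r on 1452982_at read 7.01, 6.96 and 7.18 in KSR2-/- mice, against 7.37, 7.04 and 7.41 in WT mice, a difference of −0.22 (SE 0.17) with overlapping groups. The other 4 probe sets ran from −0.12 to 0.24, and the mean of all 5 gave −0.02. The ligand gene Igf1 averaged 11.21 ± 0.22 in KSR2-/- mice and 11.13 ± 0.34 in WT mice (SD, n = 3 each), and Igf2 differed by −0.09 (SE 0.25).

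Around IGF1R, the widest gap was in Irs1, an adaptor that insulin and IGF receptors phosphorylate. Irs1 read 8.66, 8.62 and 9.63 in KSR2-/- mice, against 10.46, 10.39 and 10.49 in WT mice, a difference of −1.47 (SE 0.28, limma adjusted p = 0.197). It was −1.78 among the high-number mice and −0.86 between the low-number mice. Igf2r, the scavenger of IGF2, was 0.85 higher (SE 0.38), at 8.64 and 8.81 in KSR2-/- 1 and 2 but 7.39 in KSR2-/- 3. The insulin receptor gene Insr differed by −0.41 (SE 0.26), and Igfbp2, an IGF binding protein, by 0.40 (SE 0.25). Irs1 and Igf2r passed limma when KSR2-/- 3 was left out, with Igf2r then 1.29 higher. With all arrays limma called 0 of the 23 measured genes, and their median difference was −0.07. At an unadjusted p under 0.05 were 0 higher and 1 lower, beside 6.71% and 5.38% of all genes.

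Among 54 other measured receptors and accessory proteins of peptide hormones and neuropeptides 0 passed limma. An unadjusted p under 0.05 was reached by 2 higher and 3 lower genes, beside 6.71% and 5.38% of all genes. Pth1r, the parathyroid hormone receptor, read 4.88, 6.26 and 7.17 in KSR2-/- mice, against 7.40, 8.33 and 7.74 in WT mice, a difference of −1.72 (SE 0.56, limma adjusted p = 0.308). Aplnr, the apelin receptor of blood vessels, read 9.86, 9.70 and 9.56 in KSR2-/- mice, against 8.97, 9.36 and 9.17 in WT mice, which is 0.54 higher (SE 0.17, limma adjusted p = 0.306). Sstr2, a somatostatin receptor, was 0.55 higher (SE 0.21) and Mchr1, a melanin-concentrating hormone receptor, −0.47 (SE 0.19). Without KSR2-/- 3 limma called 2 of them, Calcrl and Sstr4. Calcrl, a receptor of calcitonin gene-related peptide and adrenomedullin, read 8.34, 8.16 and 6.99 in KSR2-/- mice, against 7.03, 7.24 and 7.30 in WT mice, a difference of 0.64 (SE 0.35) with all arrays and of 1.06 (SE 0.18) without KSR2-/- 3. In KSR2-/- 3 it lay below every WT mouse, and macrophage markers were likewise lowest in KSR2-/- 3 among the KSR2-/- mice, a part in the result that was not tested. Sstr4, another somatostatin receptor, read 4.13, 4.40 and 5.62 in KSR2-/- mice, against 5.62, 5.57 and 5.68 in WT mice, a difference of −0.90 (SE 0.37) with all arrays and of −1.36 (SE 0.18) without KSR2-/- 3. Groups did not overlap in 9 of the 54, 1 higher and 8 lower, beside 7.72% and 8.56% of all genes.

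Set side by side, Oxtr was the 1 member with a higher KSR2-/- mean and 8 had a lower one, as did 55.6% of all genes. The members other than Oxtr had a median difference of −0.19 and a range of −0.86 to −0.13, beside a median of −0.04 over all genes. Oxtr was also the 1 of 9 members whose groups did not overlap, beside 16.3% of all genes. At an adjusted p under 0.05 limma called 0 of the 9, beside 0.0055% of all genes, and without KSR2-/- 3 or without WT 3 it called 1, Oxtr. Since this contrast chose the genes, nothing is read from these counts. Over all 22 probe sets 4 had a higher KSR2-/- mean, which were both of Oxtr and 2 of Igf1r, and 18 a lower one, beside 54% of all single-gene probe sets. Groups did not overlap on 3 of the 22, both of Oxtr and 1 of Lepr, beside 15% of all single-gene probe sets.

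**Figure D3:**
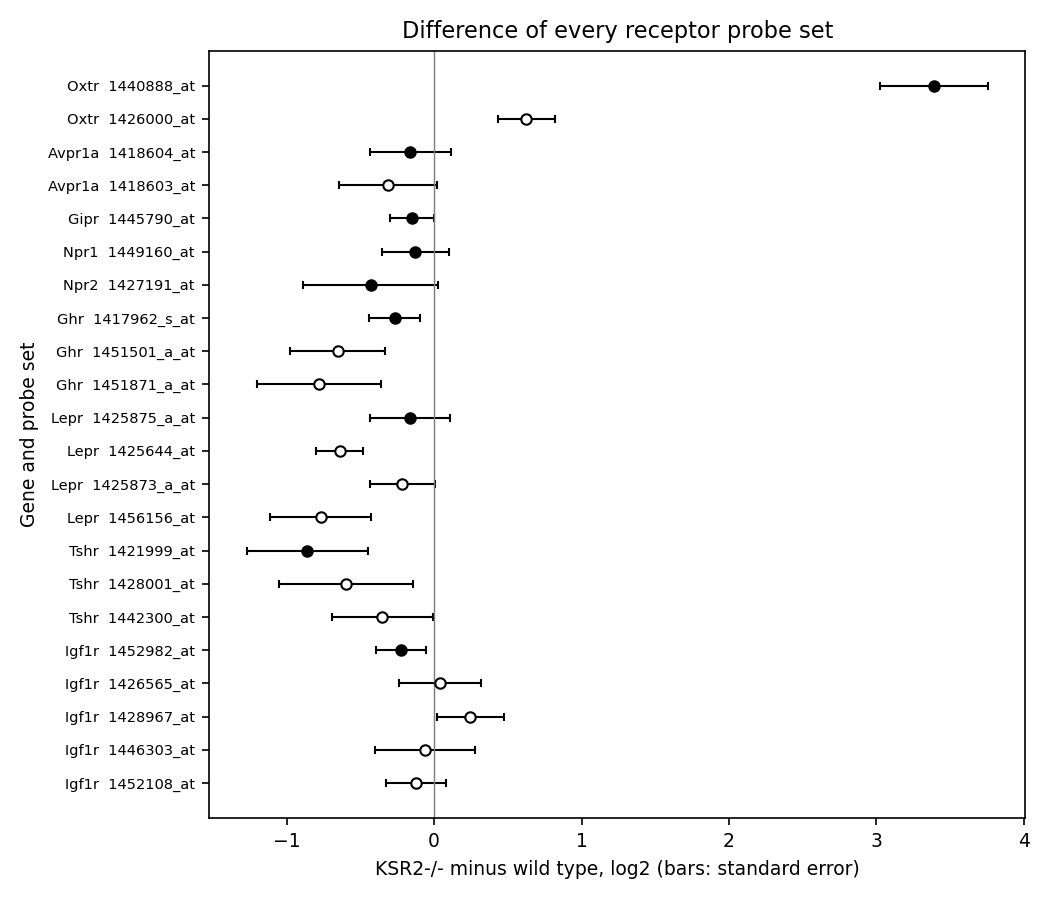
KSR2-/- minus WT difference in log2 intensity (horizontal axis) of the 22 probe sets of 9 receptor genes (vertical axis), with bars for the standard error of the fit and filled points for the main probe set of each gene. Oxtr 1440888_at stands at 3.39, and all probe sets other than those of Oxtr lie between −0.86 and 0.24.

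The lower readings were shared unevenly among the KSR2-/- mice. Of the 8 members other than Oxtr, 6 read below the lowest WT mouse in KSR2-/- 1, 5 in KSR2-/- 2 and 2 in KSR2-/- 3, and 0 read above the highest WT mouse in any of the 3. Over all genes 32.1%, 31.4% and 22.0% read below the lowest WT mouse in the same arrays, and 22.6%, 27.4% and 23.2% above the highest. The median distance of these members from the WT mean was −0.38, −0.35 and −0.03 in KSR2-/- mice 1 to 3. Over all genes it was −0.07, −0.03 and 0.00. As the members were chosen by this contrast, nothing is read from these values.

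**Figure D4:**
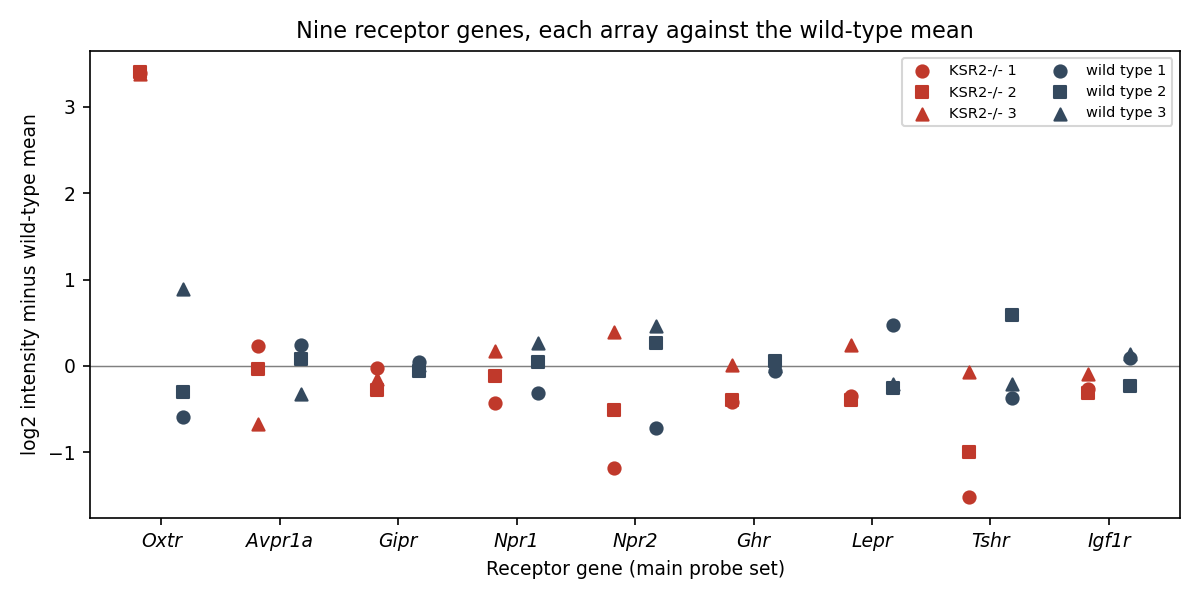
Log2 intensity minus the WT mean of the gene (vertical axis) for the 9 receptor genes (horizontal axis), with KSR2-/- mice in red left of WT mice in blue and 1 symbol for each mouse. Oxtr lies 3.39 above the WT mean on average in KSR2-/- mice, and Tshr has KSR2-/- 1 and 2 below and KSR2-/- 3 among the WT mice.

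Among the KSR2-/- mice, adipocyte markers moved with the main probe sets of Tshr, Ghr, Npr1 and Npr2. Of 9 measured adipocyte markers 8 had a lower KSR2-/- mean, and the log2 of their summed intensity was 14.78 to 15.60 in KSR2-/- mice, against 15.44 to 15.64 in WT mice. Their list mean was lowest in KSR2-/- 1, next in KSR2-/- 2 and level with WT in KSR2-/- 3. Tshr, Ghr, Npr1 and Npr2 kept that order among the KSR2-/- mice on their main probe sets. Ghr on 1451871_a_at did not, at 8.35, 7.19 and 8.13 in KSR2-/- mice 1 to 3. Other lists kept it too. The mean of 12 smooth muscle and pericyte markers was 6.99, 7.36 and 8.22 in KSR2-/- mice, against 7.48, 7.71 and 8.06 in WT mice. Endothelial, mesothelial, mammary luminal and skeletal muscle means also rose from KSR2-/- 1 to KSR2-/- 3. Macrophage, stromal progenitor, myoepithelial, ovary and uterus, and lymphocyte means did not. In whole tissue, fewer cells of a type and less RNA in each cell cannot be told apart, and the part of the markers in these readings was not tested. Oxtr did not share the order on its main probe set, where KSR2-/- 3 read 10.55.

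**Figure D5:**
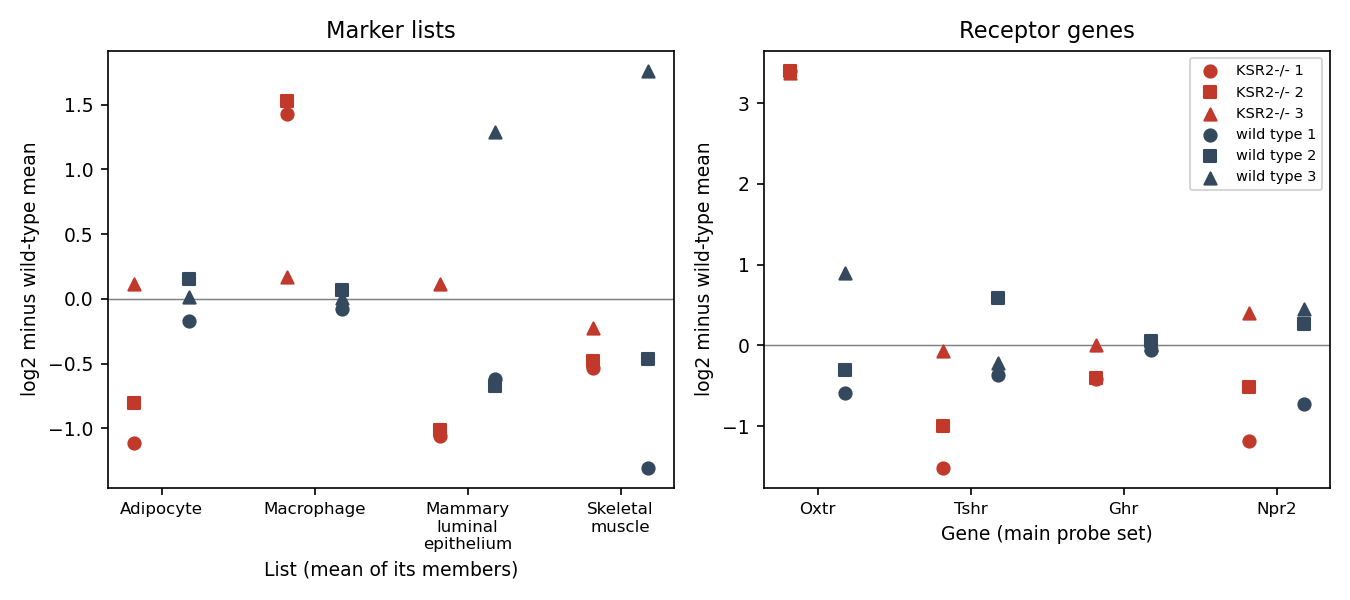
Log2 value minus the WT mean (vertical axes) for the means of 4 marker lists (left panel) and for 4 receptor genes (right panel), with KSR2-/- mice in red left of WT mice in blue and 1 symbol for each mouse. KSR2-/- 1 and 2 lie low in adipocyte markers, Tshr and Ghr, and KSR2-/- 3 lies near WT in all of these. Oxtr on its main probe set is level in all 3 KSR2-/- mice.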

How the data were processed

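The deposited table holds intensity values per probe set, which the authors made with RMA, per the submitters' processing notes (version not given in the sources used here). The linear scale was read from the values, with array medians of 22.4 to 24.2. Log2 was taken with no pseudocount. Of 45101 probe sets, 34945 had 1 gene symbol, 932 several and 9160 none listed, and 64 were controls. Symbols were updated by gene ID through RefSeq (GRCm38.p6), which matched 34741.

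KSR2-/- and WT were compared over 18193 genes, each by its brightest probe set over the 6 arrays, with limma 3.58.1 in R 4.3.3 (lmFit, eBayes without trend, two-sided, Benjamini-Hochberg over all genes, threshold 0.05). Standard errors are of that fit. A marker list's mean averages the log2 readings of its genes.

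The members and gene lists were chosen with earlier results of these data known. Genes named beyond the members were the ligands, close homologues and the 4 of each list with the smallest p. The 5 in each direction most like Oxtr were also named, passing over clone-type symbols. Elf5, Calcrl and Sstr4 were named after their values were seen. The labels hold no replicate numbers, so arrays were numbered in accession order. Whether the mice were littermates is not given, and p-values measure the spread between these arrays. Alternatives were another probe set rule, a filter, a pseudocount of 16, renewed normalization, centring, a variance trend, a block for animal numbers (above or below 6000), the Gapdh difference as a covariate, and each array left out.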

Additional observations from a re-analysis of the deposited data

How the results depend on the processing

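The difference of Oxtr kept its sign in all 15 alternatives that gave it a value, from 2.01 (mean of both probe sets) to 3.85 (high-number mice alone, a choice made after seeing the data), and ran from 3.10 to 3.84 with 1 array left out. With the mean of all probe sets Ghr differed by −0.57 and Igf1r by −0.024. With 1 array left out the ranges were −1.26 to −0.54 for Tshr, −0.85 to −0.06 for Npr2, −0.41 to −0.20 for Ghr, −0.34 to −0.15 for Igf1r, −0.21 to −0.08 for Gipr, −0.37 to 0.07 for Lepr, −0.36 to 0.09 for Avpr1a and −0.28 to 0.03 for Npr1. Lepr turned positive without WT 1 (0.07), Avpr1a without KSR2-/- 3 (0.09), and Npr1 without KSR2-/- 1 (0.03) or WT 3 (0.01). The filter at the median gene removed Avpr1a, Gipr, Npr1 and Lepr.

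Limma called 1 of 18193 genes, and 2199 had an unadjusted p under 0.05. The count was 12 with the filter, 0 with the pseudocount, 2 with quantile normalization repeated, 16 with centring, 10 with a variance trend, 0 with a block for the animal numbers, 6 with the Gapdh covariate, 0 with each probe set fitted alone and 487 among the high-number mice alone. With 1 array left out it ran from 0 to 816, the highest without KSR2-/- 3. The causes were not tested. Of the 9 members limma called 0, and 1, Oxtr, with the filter, centring, the trend, the Gapdh covariate, without KSR2-/- 3, without WT 3 or among the high-number mice alone, so 0 to 1 with 1 array left out. Of the 153 pathway genes it called 0, and 16 had an unadjusted p under 0.05, beside 12.1% of all genes. Leaving out 1 array gave 0 to 6, the 6 without KSR2-/- 3 being Pde2a, Calcrl, Igf2r and Ptpn6 higher and Irs1 and Sstr4 lower, and the high-number mice alone gave 1, Irs1. The block for the animal numbers compared the genotypes within the high-number and low-number mice. No paired analysis was possible by replicate number because the labels hold none.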
